A study of Mus musculus with 6 samples.

Results

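The distal imprinted domain of mouse chromosome 7 runs from H19 to Cdkn1c and holds H19, Igf2, Ins2, Th, Ascl2, Kcnq1, Kcnq1ot1, and Cdkn1c. Its members were all CpGs on chr7:142570529-143466050 (mm10), 895.5 kb, with at least 10 reads in each of 3 cell types once the reads of the 2 replicate libraries were summed. This gave 753 CpGs of the 1106981 compared in the series. In the domain, 961 CpGs had a read in any library, and 208 did not reach the minimum. Of the members, 367 lay within 1 kb of a transcript start, 178 in introns, 26 in other exons, 5 in 3′ UTRs, and 177 between genes. A single member had just 10 summed reads in a cell type, and 1 other CpG missed the minimum by 1 read.

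Methylation had been measured by reduced representation bisulfite sequencing (RRBS), which reads fragments cut by MspI at CCGG and size-selected, so only part of the CpGs of a region is seen. Chemically induced pluripotent stem cells (C-iPSCs) had been made from OG2-MEFs, mouse embryonic fibroblasts whose Oct4-driven green fluorescent protein marks pluripotent cells. The generation of OG2-MEFs used 129S4/SvJaeJ, CBA/CaJ, and C57BL/6J animals. The cocktail held VPA, CHIR99021, an inhibitor of the TGF-β receptor, tranylcypromine, forskolin, AM580, EPZ004777, and bFGF, later with DZNep, 5-aza-2′-deoxycytidine (an inhibitor of DNA methylation), and SGC0946. The 4F-iPSCs came from OG2-MEFs infected with retroviruses carrying Oct4, Sox2, Klf4, and c-Myc, and fluorescent colonies were picked for both. The mESCs were the established line E14, of another strain background. All cells grew in serum medium with LIF, CHIR99021, and PD0325901; iPSCs were taken at passages 5 to 10 and mESCs at passages 20 to 30, so strain, passage, and cell type cannot be told apart against mESCs. The labels do not say whether the 2 libraries of a cell type came from separate lines or cultures, so permutation p-values measure only the spread between these samples, which may be technical. The 6 libraries had between 53694199 and 96534037 reads summed over CpGs of the genome and between 31647 and 53890 over those of the domain, fewest in mESC replicate 2.

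In imprinted domains a gene is expressed from the copy of only 1 parent, and control regions that carry methylation on a single parental copy set this choice. The H19 control region is methylated on the paternal copy; on the maternal copy the protein CTCF binds it and keeps enhancers from Igf2, so H19 is expressed from the maternal copy and Igf2 from the paternal. The Kcnq1ot1 control region lies at the start of the long noncoding RNA Kcnq1ot1, is methylated on the maternal copy, and on the unmethylated paternal copy drives Kcnq1ot1, which silences neighbours such as Cdkn1c. The zinc finger protein ZFP57 binds methylated control regions and is known to maintain their methylation. Reads were not assigned to parents here, so methylation of 1 copy in every cell and of both copies in some cells cannot be told apart.

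The sequences below carry the CpGs on which the control regions were measured. They are the reverse strand of GRCm38.p6 (the mm10 build), which is the strand of H19 and Kcnq1ot1, 5′ to 3′, with the member CpGs in capitals. The H19 control region was taken as 2 to 4 kb upstream of the annotated H19 start, and its single member CpG lay 3044 bp upstream, between genes, at chr7:142581147-142581228. The H19 promoter CpGs lay 22 to 99 bp upstream of the start at chr7:142578165-142578243. The Kcnq1ot1 control region was taken to reach from 1.5 kb inside the transcript to 0.5 kb before its annotated start, and its members lay 932 to 1174 bp downstream at chr7:143295375-143295618, in the Kcnq1ot1 exon and an intron of Kcnq1. A pair further inside Kcnq1ot1, 6727 to 6801 bp downstream at chr7:143289748-143289823, is shown because its levels followed the same pattern, and was chosen after its values were seen.
H19 control region: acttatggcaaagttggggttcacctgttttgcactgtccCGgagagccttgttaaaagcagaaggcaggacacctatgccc
H19 promoter: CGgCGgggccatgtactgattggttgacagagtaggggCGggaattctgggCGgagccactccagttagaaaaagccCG
Kcnq1ot1 control region: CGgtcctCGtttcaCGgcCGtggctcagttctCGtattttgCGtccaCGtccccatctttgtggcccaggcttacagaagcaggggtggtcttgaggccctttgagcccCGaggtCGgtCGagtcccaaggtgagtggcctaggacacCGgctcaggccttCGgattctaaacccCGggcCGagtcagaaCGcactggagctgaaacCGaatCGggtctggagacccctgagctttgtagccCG
Kcnq1ot1 inner pair: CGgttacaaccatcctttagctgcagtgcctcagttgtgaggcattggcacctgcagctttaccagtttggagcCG

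RRBS saw the control regions unequally. The 2000 bp window of the H19 control region holds 60 CpGs and 3 MspI sites, and 4 of its CpGs had a read, of which only 1 reached the minimum; this CpG lies in an MspI site. The window of the Kcnq1ot1 control region holds 101 CpGs and 5 MspI sites, and 18 CpGs had a read, all of them members. The letters GGNGGCAG, the core of the CTCF motif, occurred 5 times on either strand in the H19 window, all on the strand of H19, and 0 times in the Kcnq1ot1 window; 39.0% of the 70899 windows of 2 kb on chromosome 7 held it at least once and 0.198% at least 5 times. The letters TGCCGC, to which ZFP57 binds when methylated, occurred 5 times in the H19 window and 3 times in the Kcnq1ot1 window; 11.7% of the windows held it, 0.0282% at least 5 times and 0.336% at least 3 times. A CTCF match and a TGCCGC match overlapped at 1 place in the H19 window. None of these matches holds a member CpG. The nearest lay 416 bp from the member CpG in the H19 window and 51 bp from a member in the Kcnq1ot1 window, so methylation inside the motifs was not measured. A match is a description of the letters and not of binding.

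Mean levels across the domain were lowest in mESCs, higher in C-iPSCs, and highest in 4F-iPSCs. By summed reads, 311 of the 753 members (41.3%) had this order, against 43.6% of the compared CpGs outside the domain. Medians over the members were 7.32% for mESCs, 7.53% for C-iPSCs, and 11.2% for 4F-iPSCs. The level of a library is the mean over its member CpGs with at least 10 reads there of methylated reads over all reads. It was 20.4% and 22.1% in the mESC libraries, 23.3% and 26.8% in the C-iPSC libraries, and 30.3% and 32.5% in the 4F-iPSC libraries. No library of 1 cell type overlapped those of another. The means were 21.3% ± 1.21 (SD, n = 2), 25.1% ± 2.46, and 31.4% ± 1.61. The two-sided exact permutation test over libraries gave p = 0.33 for each of the 3 pairs, which is the smallest it can give with 2 libraries against 2. By levels from summed reads, CpGs at or above 80% made up 2.92% of the members for mESCs, 12% for C-iPSCs, and 23.2% for 4F-iPSCs, while CpGs under 30% made up 69.6%, 70.5%, and 64.5%. Over all compared CpGs of the series these shares were 2.67%, 12.5%, and 24.7% at or above 80% and 68.2%, 63.3%, and 60.9% under 30%.

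**Figure D1:**
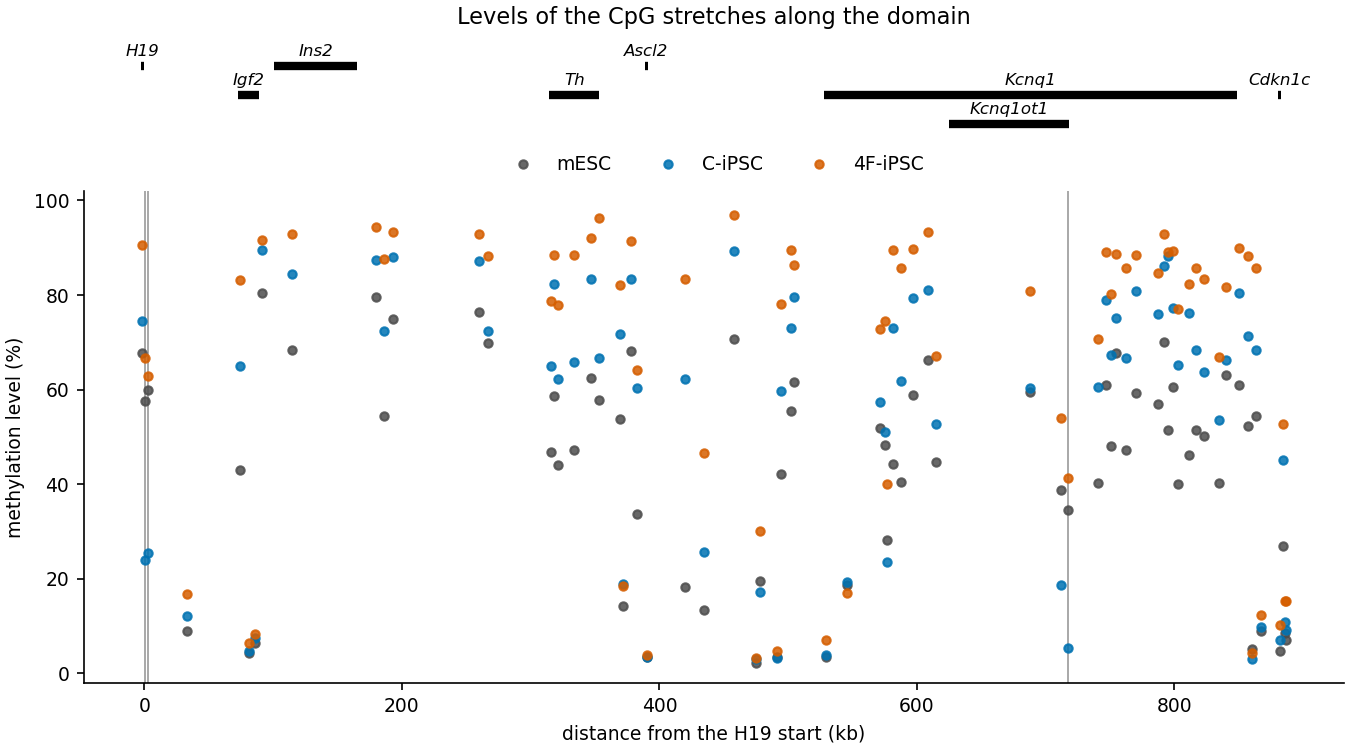
Methylation level (%) of 72 stretches of member CpGs at most 1000 bp apart, from summed reads, against the distance of the stretch from the H19 start in kb; each point is 1 stretch in 1 cell type, bars at the top show the annotated genes, and grey lines mark the H19 promoter, the H19 control region, and the Kcnq1ot1 control region. In most stretches the 4F-iPSC point is highest and the mESC point lowest, while at the grey lines the C-iPSC point is lowest, at 24.1%, 25.5%, and 5.43%.

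The control regions did not follow this order. In all 24 CpGs of the H19 promoter, the H19 control region, and the Kcnq1ot1 control region, the C-iPSC level was below both the mESC and the 4F-iPSC level. In the other 729 members it was lowest in 140 (19.2%), against 15.35% of the compared CpGs outside the domain. Other imprinted clusters had larger shares, 133 of 545 CpGs (24.4%) in Dlk1-Dio3 and 73 of 315 (23.2%) in Peg12-Ube3a. In the whole domain the share was 164 of 753 (21.8%). Of the 58 stretches that reached 20% in some cell type, 52 had the order mESCs, C-iPSCs, 4F-iPSCs, and 6 had C-iPSCs lowest. In 4 stretches, every C-iPSC library lay below every other library, and these were the H19 promoter, the H19 control region, the inner pair, and the Kcnq1ot1 control region. The division into stretches was made after levels were seen.

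At the H19 promoter, the 5 CpGs averaged 56.9% and 59.2% in the mESC libraries, 16.0% and 32.0% in the C-iPSC libraries, and 59.5% and 73.1% in the 4F-iPSC libraries. Both C-iPSC libraries lay far below the rest, and both 4F-iPSC libraries lay above both mESC libraries, by little for replicate 1. The means were 58.0% ± 1.60 (SD, n = 2) for mESCs, 24.0% ± 11.3 for C-iPSCs, and 66.3% ± 9.61 for 4F-iPSCs. C-iPSCs minus mESCs was -34.1 points and 4F-iPSCs minus C-iPSCs 42.3 points, both beyond the spread between replicates. The exact permutation test gave p = 0.33, its smallest value, for each pair. 4F-iPSCs minus mESCs was 8.27 points, and 1.47 points without 4F-iPSC replicate 2, 15.1 points without 4F-iPSC replicate 1, and 13 points on the forward strand alone. All 5 CpGs were lower in C-iPSCs than in mESCs, from 27.4% against 61.2% at 22 bp upstream of the start to 26.7% against 79.7% at 99 bp upstream. The values rest on read counts of 879, 1058, and 1358 in mESCs, C-iPSCs, and 4F-iPSCs. These are summed over the 5 CpGs, and a fragment is counted at each CpG it spans.

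At the H19 control region, the single CpG had 13 methylated of 18 reads and 23 of 42 in the mESC libraries, 20 of 92 and 20 of 65 in the C-iPSC libraries, and 24 of 52 and 47 of 61 in the 4F-iPSC libraries. The levels were 72.2% and 54.8%, 21.7% and 30.8%, and 46.2% and 77.0%, so both C-iPSC libraries lay below the other 4. The 95% Wilson intervals reached from 14.5% to 31.2% and from 20.9% to 42.8% in the C-iPSC libraries, and the lowest bounds elsewhere were 40% in mESC replicate 2 and 33.3% in 4F-iPSC replicate 1, so that of C-iPSC replicate 2 overlapped with both. These intervals cover counting error only, since reads copied in PCR are not separate molecules. Mean levels were 63.5% ± 12.4 (SD, n = 2), 26.3% ± 6.38, and 61.6% ± 21.9, with C-iPSCs minus mESCs at -37.2 points (exact permutation p = 0.33). The libraries of 4F-iPSCs and mESCs overlapped, with a difference of -1.89 points and exact permutation p = 1. This difference turned to 6.84 points without mESC replicate 1 and also with at least 20 reads required, which leaves that library out, and to 13.6 points without 4F-iPSC replicate 1, and by summed reads 4F-iPSCs lay above mESCs, at 62.8% against 60%. It was -0.419 points on the reverse strand alone, -10.6 points without mESC replicate 2, and -17.3 points without 4F-iPSC replicate 2. Since RRBS gave 1 CpG of 60, the level stands for that CpG and not for the control region as a whole.

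The Kcnq1ot1 control region was nearly unmethylated in C-iPSCs. Its 18 CpGs averaged 37.4% and 30.7% in the mESC libraries, 5.25% and 5.44% in the C-iPSC libraries, and 35.2% and 46.1% in the 4F-iPSC libraries. The C-iPSC libraries lay close together and below the other 4, while 4F-iPSCs and mESCs overlapped. The means were 34.0% ± 4.79 (SD, n = 2), 5.35% ± 0.140, and 40.6% ± 7.70. C-iPSCs minus mESCs was -28.7 points and 4F-iPSCs minus C-iPSCs 35.3 points, with exact permutation p = 0.33 for both, and 4F-iPSCs minus mESCs was 6.58 points with p = 0.667. The last difference was 1.13 points without 4F-iPSC replicate 2, 11.7 points without 4F-iPSC replicate 1, 3.00 points without mESC replicate 2, 9.97 points without mESC replicate 1, 3.82 points on the forward strand alone, and 2.93 points in a window of 1 kb to each side of the start. With the read counts of the 18 CpGs summed, 110 of 2355 were methylated in C-iPSCs, against 859 of 2370 in mESCs and 1192 of 2817 in 4F-iPSCs. A fragment that spans several CpGs is counted at each, so these counts are not separate molecules.

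**Figure D2:**
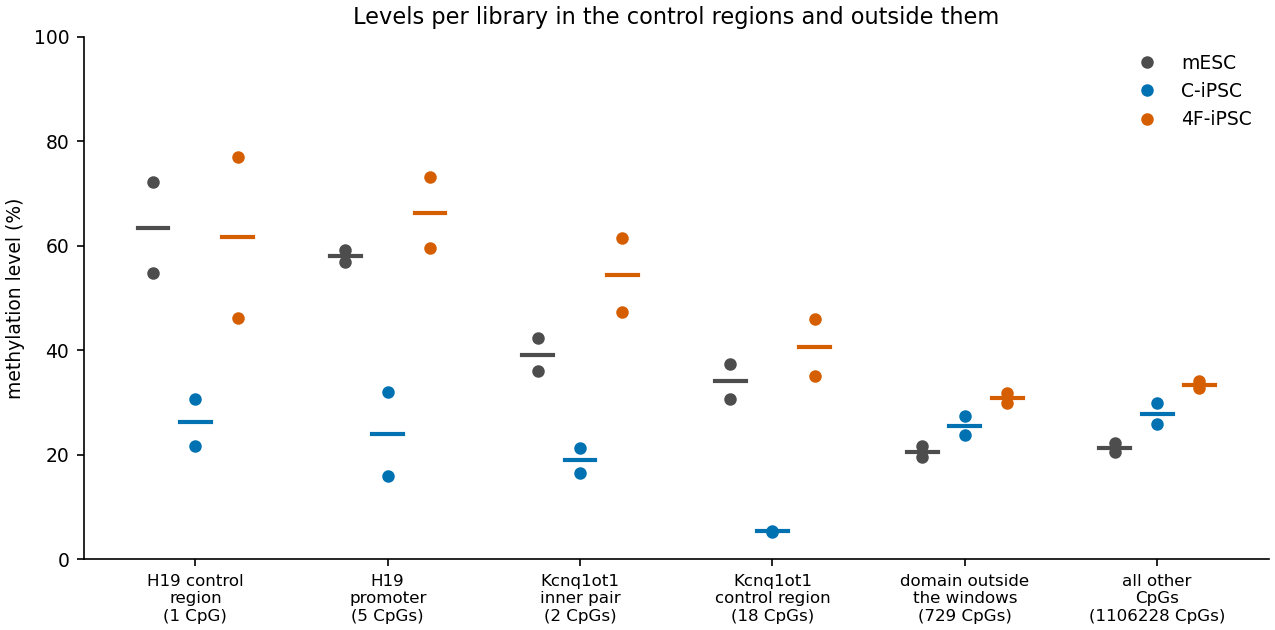
Methylation level (%) per library at the H19 control region, the H19 promoter, the Kcnq1ot1 inner pair, and the Kcnq1ot1 control region, beside the 729 members outside the windows and the 1106228 CpGs outside the domain; dots are libraries and bars the mean of the 2 libraries of a cell type. C-iPSC libraries are lowest in the 4 groups on the left and lie between the other cell types in the 2 on the right.

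The low level in C-iPSCs held from CpG to CpG along the Kcnq1ot1 control region. From summed reads, the 18 CpGs ranged from 21.4% to 61.5% in mESCs, from 0 to 21.6% in C-iPSCs, and from 30.5% to 69.5% in 4F-iPSCs. In the 7 CpGs within 1 kb of the start, 932 to 979 bp from it, C-iPSC levels were between 2.15% and 7.58% and mESC levels between 29.2% and 38.7%. The CpG with no methylated read in C-iPSCs had 24 reads, which allows a level of up to 12.5%. The highest C-iPSC level, 21.6% of 37 reads, was at a CpG 1080 bp from the start with 27.0% in mESCs, a difference within counting error (Fisher's exact p = 0.787).

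**Figure D3:**
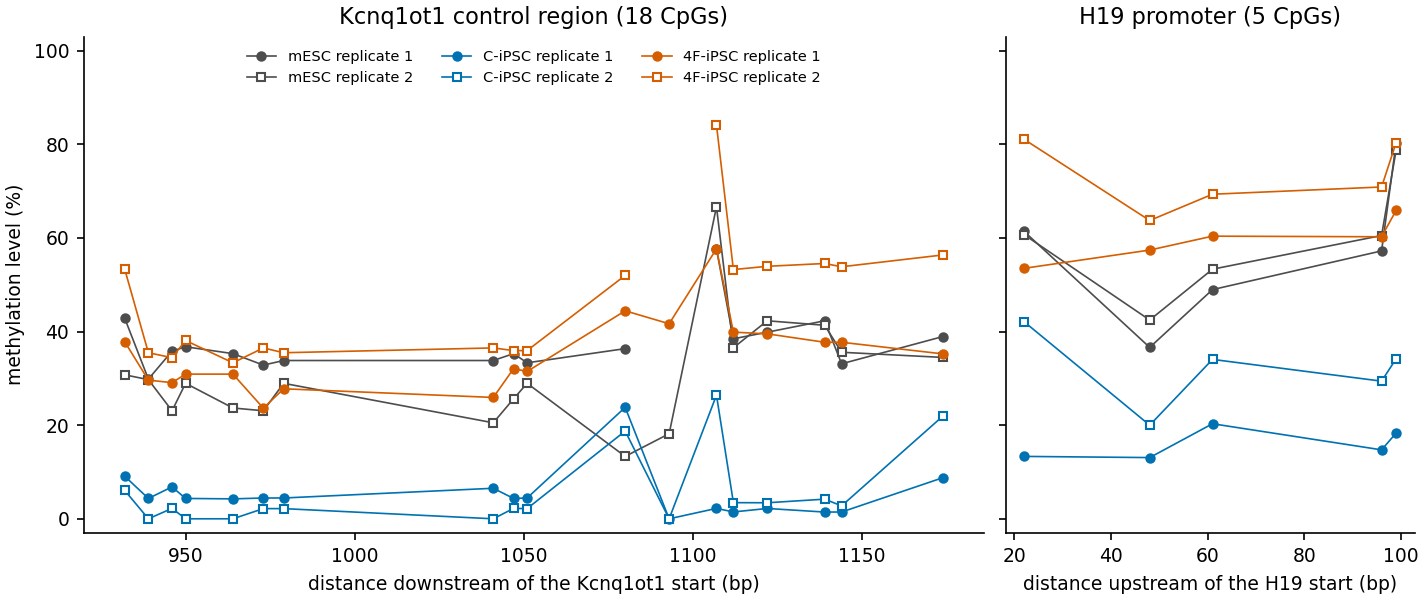
Methylation level (%) of each CpG in each library with at least 10 reads there, against the distance in bp downstream of the Kcnq1ot1 start (left, 18 CpGs) and upstream of the H19 start (right, 5 CpGs); filled circles are replicate 1, open squares replicate 2, and lines join neighbouring CpGs. The C-iPSC libraries run along the bottom of both panels except at 1080 bp on the left, where mESC replicate 2 is lowest, at means of 5.25% and 5.44% on the left and 16.0% and 32.0% on the right.

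The strands of the Kcnq1ot1 control region differed in level in mESCs and 4F-iPSCs. Forward strand reads were methylated in 28.0% of 1097 for mESCs, 4.57% of 1161 for C-iPSCs, and 34.2% of 1269 for 4F-iPSCs. Reverse strand reads were methylated in 43.4% of 1273, 4.77% of 1194, and 49.0% of 1548. The forward values come from 16 CpGs and the reverse values from 17, which do not all coincide. Reads were counted at each CpG and summed, so a fragment over several CpGs enters several times. The reverse strand was higher in each of the 4 libraries of mESCs and 4F-iPSCs, with the smallest gap in 4F-iPSC replicate 1, at 41.8% against 29.3%, and on both strands C-iPSCs were lowest. The cause of the gap between strands was not tested. At the H19 promoter, C-iPSCs were also lowest on both strands, with 21.8% on the forward and 24.6% on the reverse strand against 49.4% and 58.9% in mESCs.

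The inner pair of Kcnq1ot1 lay in its exon, further into the transcript than the control region. Its level was 42.4% and 36.0% in the mESC libraries, 16.6% and 21.2% in the C-iPSC libraries, and 47.4% and 61.5% in the 4F-iPSC libraries. The mean of the pair was not tested over libraries. The only other members in Kcnq1ot1, at positions 143265990 and 143266050 nearer its 3′ end, did not share the low level, with 61.5% and 57.5% for mESCs, 62.8% and 58.0% for C-iPSCs, and 83.9% and 77.9% for 4F-iPSCs.

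The H19 and Kcnq1ot1 control regions carry their methylation on opposite parental copies, and both were lowest in C-iPSCs. Within each library, the H19 control region lay above the Kcnq1ot1 control region, by 34.8 and 24.1 points in the mESC libraries, 16.5 and 25.3 points in the C-iPSC libraries, and 11 and 31.0 points in the 4F-iPSC libraries. These gaps overlapped between all cell types. C-iPSCs minus mESCs was -8.54 points and 4F-iPSCs minus mESCs -8.47 points (exact permutation p = 0.667 for both), and 4F-iPSCs minus C-iPSCs 0.0716 points (exact permutation p = 1). The order of 4F-iPSCs and C-iPSCs turned, to -2.17 points when CpGs were weighted by their reads, -4.35 points without C-iPSC replicate 1, and -9.93 points without 4F-iPSC replicate 2, and that of 4F-iPSCs and mESCs turned to 1.90 points without 4F-iPSC replicate 1. C-iPSCs minus mESCs was -3.20 points without mESC replicate 1, -14.2 points without mESC replicate 2, -4.12 points without C-iPSC replicate 1, and -13.0 points without C-iPSC replicate 2, and 4F-iPSCs minus mESCs was -3.13, -13.6, and -18.5 points without mESC replicate 1, mESC replicate 2, and 4F-iPSC replicate 2. With at least 20 reads required, which leaves out mESC replicate 1, C-iPSCs minus mESCs was -1.25 points and 4F-iPSCs minus mESCs -1.07 points. With the other windows, 4F-iPSCs minus mESCs was -4.82 points and 4F-iPSCs minus C-iPSCs 4.91 points. With 2 libraries against 2, the exact permutation test could not have detected a difference between the control regions in their change.

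Set against the 729 members outside these windows, the control regions and the H19 promoter stood above them in every mESC and 4F-iPSC library, while in C-iPSCs the Kcnq1ot1 control region lay below them and the H19 features on either side. The Kcnq1ot1 control region exceeded them by 17.8 and 9.06 points in the mESC libraries and by 5.26 and 14.2 points in the 4F-iPSC libraries, and lay at -18.6 and -21.9 points from them in the C-iPSC libraries. The H19 promoter exceeded them by 37.2 and 37.6 points in mESCs and by 29.6 and 41.2 points in 4F-iPSCs, and lay at -7.89 and 4.6 points from them in C-iPSCs. For the H19 control region the gaps were 52.6 and 33.2 points in mESCs, 16.2 and 45.2 points in 4F-iPSCs, and -2.11 and 3.42 points in C-iPSCs. C-iPSCs minus mESCs in this gap was -33.7 points for the Kcnq1ot1 control region, -39.0 points for the H19 promoter, and -42.2 points for the H19 control region, with exact permutation p = 0.33 for each. CpGs of like mESC level elsewhere mostly had higher levels in C-iPSCs. Among CpGs between 20% and 80% in mESCs, C-iPSCs were lower by over 20 points in 23 of 24 in the windows, in 3 of 215 in the rest of the domain, and in 0.681% of 382109 outside it. The median difference was -28.9, 16.6, and 16.9 points.

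**Figure D4:**
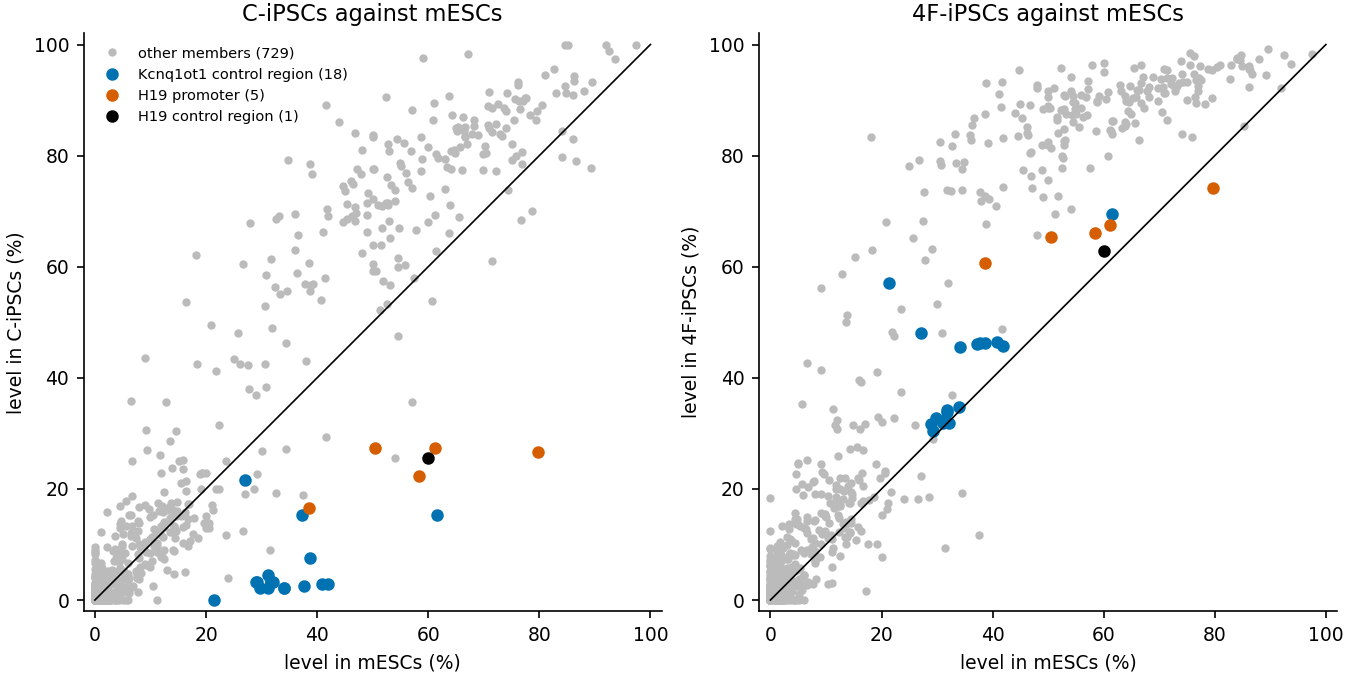
Level (%) of the 753 members from summed reads in C-iPSCs (left) and 4F-iPSCs (right) against mESCs, with the line of equal levels; each point is 1 CpG, and the 18 CpGs of the Kcnq1ot1 control region, the 5 of the H19 promoter, and the 1 of the H19 control region are coloured. All 24 coloured points lie under the line on the left, while most other points lie above it in both panels.

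Strong calls counted the CpGs behind these differences. A CpG was called where Fisher's exact test on summed reads gave an unadjusted p under 0.05 and levels differed by more than 0.33 as a fraction. This p covers counting error only, since it treats the summed reads of both libraries as separate molecules and leaves out the spread between libraries, and the calls and the regions built from them carry the same limit. A CpG with an mESC level under 0.33 could not be called lower than in mESCs, whatever its C-iPSC level. The median mESC level of the Kcnq1ot1 control region was 31.9%, so its lower calls undercount the CpGs with a lower level. In C-iPSCs against mESCs, 8 of 753 members (1.06%) were lower, against 0.0374% of all compared CpGs, and 18 (2.39%) were higher, against 2.9%. In other imprinted clusters, 5 of 545 CpGs (Dlk1-Dio3) and 3 of 315 (Peg12-Ube3a) were lower. All 8 lower CpGs lay in the control windows, 3 in the H19 promoter, 1 in the H19 control region, and 4 in the Kcnq1ot1 control region, with medians of 18.8% in C-iPSCs and 59.2% in mESCs. None of the 18 higher CpGs did, and their medians were 77.6% in C-iPSCs and 37.4% in mESCs. The medians of called CpGs only describe them, since a large gap between these cell types was the condition of the call. Single libraries moved the higher count, to 10 without mESC replicate 1, 29 without mESC replicate 2, 34 without C-iPSC replicate 1, and 11 without C-iPSC replicate 2.

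In 4F-iPSCs against mESCs, 83 members (11%) were higher, against 14.3% of all compared CpGs, and 0 were lower, against 0.0333%. Of the 83, 82 lay outside the control windows and 1 in the Kcnq1ot1 control region, at a CpG with 14 and 21 reads. In 4F-iPSCs against C-iPSCs, 20 members (2.66%) were higher, against 1.35% of all compared CpGs, and 0 were lower, against 0.0285%; 2 were lower without C-iPSC replicate 1. Of the 20, 13 lay in the control windows, with all 5 CpGs of the H19 promoter, the CpG of the H19 control region, and 7 of the Kcnq1ot1 control region. The inner pair held another 1, with 70.5% in 4F-iPSCs against 25.5% in C-iPSCs.

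A quasi-binomial model scales the counting error by a dispersion estimated from the spread between libraries over many CpGs. A dispersion of 1 would be counting error alone, and for 4F-iPSCs the estimates were 1.94 when compared with mESCs and 2.49 with C-iPSCs. In C-iPSCs against mESCs it was 1 common value, 2.51, so the spread at a single CpG did not enter its test there. The model, which adjusts p-values over all tested CpGs by the Benjamini-Hochberg method, kept all 8 lower calls in C-iPSCs against mESCs, where 0.0113% of all tested CpGs were called, with 4 in the Dlk1-Dio3 cluster and 0 in the Peg12-Ube3a cluster. It called 8 members higher in C-iPSCs than in mESCs against 1.49% of all tested CpGs, and 74 higher in 4F-iPSCs than in mESCs against 13.1%. In 4F-iPSCs against C-iPSCs it called 13 members higher, 12 of them in the control windows, against 0.614% of all tested CpGs. It called 0 members lower in 4F-iPSCs than in mESCs or C-iPSCs, against 0.025% and 0.0142% of all tested CpGs. At the CpG of the H19 control region, the adjusted p of this model in C-iPSCs against mESCs was 0.0490 and Fisher's exact p was 3.17e-06. At the CpG 1139 bp downstream of the Kcnq1ot1 start, with 2.84% in C-iPSCs and 41.9% in mESCs, they were 2.13e-10 and 1.24e-31.

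Where 3 or more strong calls of one direction followed each other at distances of up to 300 bp, they were taken as differentially methylated regions (DMRs). Since the calls required a large gap, the DMR levels below describe them and are no further support. C-iPSCs had 2 lower DMRs against mESCs, where the whole series had 15. These were chr7:142578165-142578243 in the H19 promoter and chr7:143295410-143295443 in the Kcnq1ot1 control region, where 4 CpGs averaged 45.6% ± 1.52 (SD, n = 2) for mESCs, 5.60% ± 5.33 for C-iPSCs, and 52.6% ± 12.6 for 4F-iPSCs. Against C-iPSCs, 4F-iPSCs had 2 higher DMRs, of 752 in the series, at the same places, the H19 promoter and chr7:143295405-143295618, where 17 CpGs averaged 33.9% ± 4.89 for mESCs, 4.75% ± 0.400 for C-iPSCs, and 40.3% ± 7.25 for 4F-iPSCs. Without C-iPSC replicate 1, 1 lower DMR was left.

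The DMRs higher than in mESCs lay elsewhere. C-iPSCs had 2 of the 2205 in the series, 2.66 per 1000 compared CpGs in the domain and 1.99 in the series. Both lay in introns of Kcnq1, chr7:143373185-143373301 with 48.7% ± 13 (SD, n = 2) for mESCs, 87.9% ± 5.04 for C-iPSCs, and 89.9% ± 1.27 for 4F-iPSCs, and chr7:143389290-143389312 with 44.5% ± 3.04, 82.2% ± 10.3, and 85.0% ± 5.69. Their number was 0 without mESC replicate 1 or C-iPSC replicate 2 and 5 without C-iPSC replicate 1. 4F-iPSCs had 10 of the 19582 in the series, 13.3 per 1000 compared CpGs in the domain and 17.7 in the series. Of the 10, 7 lay in introns of Kcnq1, whose body holds 128 of the 753 members and 46 of the 83 higher strong calls. In these 7, mESC means were between 36.3% and 51.6%, C-iPSC means between 61.5% and 81.0%, and 4F-iPSC means between 75.1% and 93.1%.

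Of those 7 DMRs, chr7:143159807-143159946 and chr7:143165625-143165768 lay between the Kcnq1 start and the 3′ end of Kcnq1ot1, and the other 5 beyond the Kcnq1ot1 start. Of these 5, chr7:143325199-143325316, chr7:143328632-143328663, and chr7:143340681-143341073 also lay in the antisense gene 4933417O13Rik. The longest, chr7:143340681-143341073, held 9 CpGs with 46.9% ± 5.31 (SD, n = 2) for mESCs, 69.2% ± 10.8 for C-iPSCs, and 86.7% ± 0.141 for 4F-iPSCs. The other 2 were chr7:143380605-143380735, with 36.3% ± 2.34, 63.2% ± 5.66, and 75.1% ± 0.810, and chr7:143389262-143389312. Outside Kcnq1, the DMR chr7:142652084-142652224 in the Igf2 3′ UTR had 43.5% ± 6.72 for mESCs, 64.6% ± 5.06 for C-iPSCs, and 83.1% ± 1.45 for 4F-iPSCs. In Cdkn1c, chr7:143458918-143458951 near its 3′ end had 24.2% ± 0.443, 45.9% ± 4.64, and 66.7% ± 7.22. The last, chr7:143428481-143428696, lay between Kcnq1 and Cdkn1c, with 56.9% ± 7.25, 77.0% ± 8.36, and 89.1% ± 0.843.

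The H19 body and Igf2 stood apart from the H19 control features. In the H19 body away from the promoter, 4 CpGs averaged 64.6% ± 9.80 (SD, n = 2) for mESCs, 78.9% ± 15.7 for C-iPSCs, and 90.7% ± 2.77 for 4F-iPSCs, but the libraries of C-iPSCs overlapped with those of both other cell types. With at least 10 reads, mESC replicate 1 rests on 2 of these CpGs and C-iPSC replicate 2 on 1. C-iPSCs minus mESCs was 14.3 points, and 1.86 points without mESC replicate 2, 3.24 points without C-iPSC replicate 2, and 7.39 points without mESC replicate 1. Igf2 encodes a growth factor of the fetus and is expressed from the paternal copy. The 104 members within 1 kb of its starts had a low mean in every library, with 3.82% ± 0.523 for mESCs, 4.6% ± 0.606 for C-iPSCs, and 6.44% ± 1.48 for 4F-iPSCs. From summed reads, their medians were 1.19%, 1.17%, and 2.05%, but the highest CpG reached 57.1%, 80.8%, and 92.0%. The Igf2 body, 35 CpGs, had 10.7% ± 1.18, 14.1% ± 3.18, and 16.5% ± 0.463, with medians over CpGs of 3.23%, 4.17%, and 3.30%.

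Of the named genes between the control regions, Ins2 and Th had the order of the domain in their mean levels, and Ascl2 was low in all libraries. Ins2, which encodes insulin, had no member near its start and 2 in its annotated body, with 66.2% ± 9.31 (SD, n = 2) for mESCs, 84.5% ± 7.95 for C-iPSCs, and 92.7% ± 0.501 for 4F-iPSCs. Th encodes tyrosine hydroxylase, the first enzyme of catecholamine synthesis. Its 15 body CpGs all had the order mESCs, C-iPSCs, 4F-iPSCs, with 51.9% ± 7.74, 70.9% ± 7.37, and 84.7% ± 0.368 and no overlap between libraries of different cell types. The 2 CpGs near its starts had 64.8% ± 9.13, 75.1% ± 3.35, and 94.0% ± 3.48, with 1 CpG each in mESC replicate 1 and C-iPSC replicate 2. Ascl2, a transcription factor gene needed for the trophoblast, was low throughout, with 2.95% ± 0.486, 2.91% ± 0.610, and 2.88% ± 1.90 over 37 promoter CpGs and 5.00% ± 1.42, 5.04% ± 1.28, and 7.24% ± 4.07 over 10 body CpGs. Its libraries overlapped between all cell types.

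Kcnq1, a potassium channel gene that holds Kcnq1ot1 in its introns, combined a low promoter with a methylated body. The 27 CpGs near its starts had 3.25% ± 0.434 (SD, n = 2) for mESCs, 4.17% ± 0.655 for C-iPSCs, and 7.06% ± 0.668 for 4F-iPSCs. The 106 body CpGs outside Kcnq1ot1 had 50.5% ± 4.91, 69.0% ± 7.24, and 81.4% ± 0.431. There the C-iPSC level was above mESCs in 99 of 106 CpGs, and in the Kcnq1ot1 control region inside the same gene it was below in 18 of 18. Outside the domain, the C-iPSC level was above mESCs in 666319 and below in 253961 of 1106228 compared CpGs. Kcnq1ot1 itself had 31.1% ± 5.96, 3.60% ± 2.54, and 34.0% ± 5.74 over the 7 members within 1 kb of its start, and 39.7% ± 2.22, 15.2% ± 2.87, and 51.3% ± 8.61 over the 15 in its body. These 7 and most of the 15 belong to the control region. The 4 body members outside it had 49.8% for mESCs, 39.25% for C-iPSCs, and 67.6% for 4F-iPSCs, and C-iPSCs were below mESCs in 2 of them. Cdkn1c, which encodes an inhibitor of the cell cycle and is expressed from the maternal copy, was low, with 4.5% ± 0.281, 7.88% ± 0.0136, and 11.4% ± 2.76 over 37 promoter CpGs and 5.02% ± 0.452, 6.56% ± 1.26, and 9.42% ± 0.367 over 44 body CpGs, whose medians were 1.38%, 0.885%, and 2.19%.

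**Figure D5:**
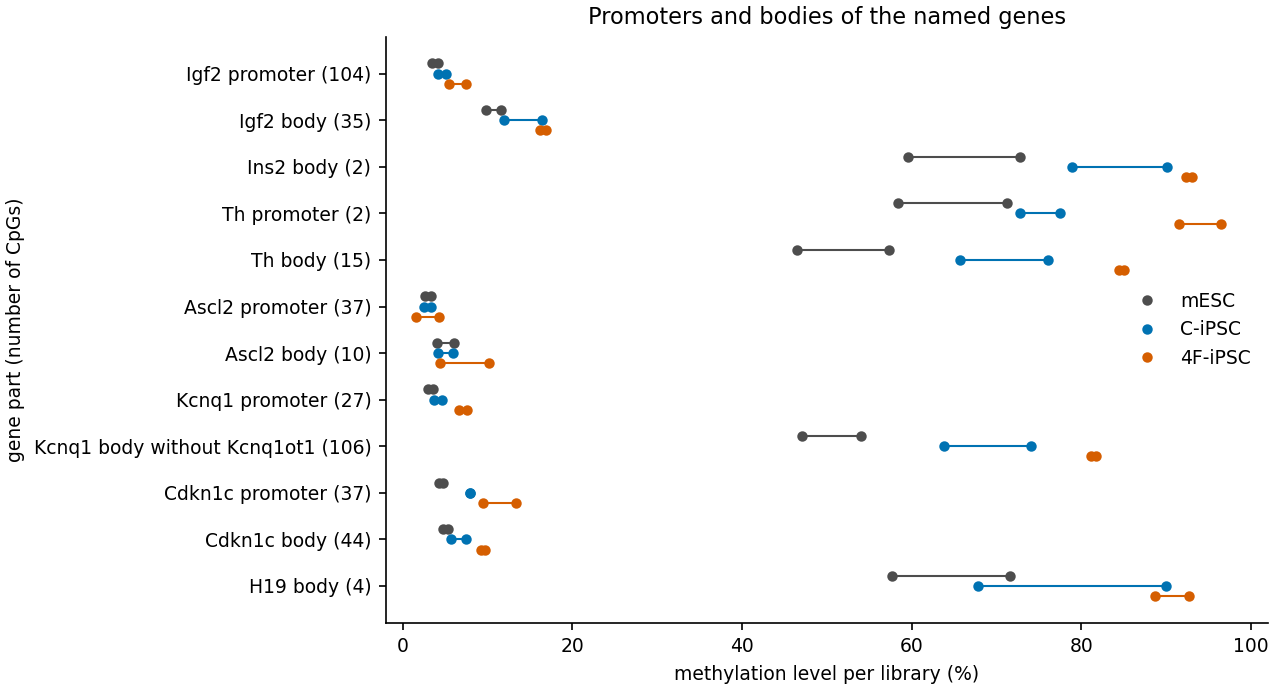
Methylation level (%) per library of the promoters (within 1 kb of a start) and bodies of the named genes apart from the control features; dots are the 2 libraries of a cell type, joined by a line, and the number of member CpGs is in brackets. Promoters of Igf2, Ascl2, Kcnq1, and Cdkn1c stay under 14% in every library, and in the Th and Kcnq1 bodies the C-iPSC libraries lie between those of mESCs and 4F-iPSCs.

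In all, 37 annotated genes overlapped the domain and 20 had at least 3 members near a start or in the body. Among the others, promoters of Cd81, R74862, and Tssc4 averaged between 2.46% and 3.53% in the cell types, and Igf2os, antisense to Igf2, between 2.82% and 4.54%. The bodies of Gm6471, Gm39117, and 4933417O13Rik had means between 55.3% and 90.8%, lowest in mESCs and highest in 4F-iPSCs. The promoter of Gm7290 had the same order, at 80%, 86.8%, and 94.4%. Gm6471 and Gm39117 share the same 12 body CpGs, of which 6 had enough reads in C-iPSC replicate 2 and in 4F-iPSC replicate 1. The body of Trpm5, a cation channel gene, had means of 9.12%, 11.4%, and 14.8%, but medians over its 39 CpGs of 0.943%, 1.02%, and 0.820%. Most of these CpGs also lie near the Tssc4 start. Of the few others, that at position 143070865 had 30.0% for mESCs, 26.9% for C-iPSCs, and 53.3% for 4F-iPSCs, on 10, 26, and 30 reads. The rest had between 34.5% and 61.7% for mESCs, 55.6% and 79.5% for C-iPSCs, and 73.9% and 91.6% for 4F-iPSCs. The body of Gm33148 had means of 8.88%, 12.5%, and 15.8% and medians of 11%, 11.9%, and 11.8%. Gm49394 overlaps Igf2, and its 9 promoter CpGs had 78.3%, 83.8%, and 91.8%. Of these, 6 had enough reads in mESC replicate 1 and in both C-iPSC libraries. C-iPSCs minus mESCs was 5.57 points there and turned to -0.365 points without mESC replicate 1. The members near the starts of Gm27786 and Gm44732 are those of the H19 promoter and of Cdkn1c.

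Compared with the rest of the series, the domain lay slightly lower in iPSCs. Its mean lay at -0.110 and -0.0623 points from that of all other compared CpGs in the mESC libraries, at -2.54 and -3.03 points in the C-iPSC libraries, and at -2.51 and -1.57 points in the 4F-iPSC libraries. C-iPSCs minus mESCs in this gap was -2.70 points and 4F-iPSCs minus mESCs -1.95 points, with exact permutation p = 0.33 for both. In mean level, C-iPSCs minus mESCs was 3.82 points over the domain, 4.97 in its 729 members outside the control windows, and 6.51 in all other compared CpGs. For 4F-iPSCs these were 10.1, 10.3, and 12.1 points. Part of the C-iPSC change in the gap thus rests on the control windows. In the Dlk1-Dio3 cluster (545 CpGs) the gap was 12 ± 1.13 points (SD, n = 2) for mESCs, 12.1 ± 1.89 for C-iPSCs, and 17.1 ± 0.243 for 4F-iPSCs, and in the Peg12-Ube3a cluster (315 CpGs) 1.92 ± 1.71, -0.0474 ± 0.346, and 5.29 ± 0.0911.

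Promoters of pluripotency genes had low levels in all libraries, up to 22.4% at Pou5f1 in 4F-iPSC replicate 2. Within 1 kb of the starts, Pou5f1 had 8.94% ± 1.23 (SD, n = 2) for mESCs, 7.59% ± 1.89 for C-iPSCs, and 17.2% ± 7.25 for 4F-iPSCs over 7 CpGs. These rest on read counts of 1015, 15626, and 15795 summed over the 7 CpGs. The iPSCs carry an added Oct4 promoter in the green fluorescent protein reporter, whose part in these levels was not tested. Nanog had 3.26% ± 4.61, 9.59% ± 2.46, and 11.8% ± 0.457 over 2 CpGs, and Zfp42 had 5.23% ± 1.55, 6.44% ± 0.683, and 11.8% ± 5.60 over 7. Dppa3 and Tdgf1 had no compared CpG. Of the fibroblast genes, Thy1, Col1a2, and Twist2 had mean promoter levels between 5.97% and 18.1%, low in every cell type, and Col1a1 and S100a4 had no compared CpG, so these promoters cannot measure a share of fibroblasts.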

How the data were processed

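RRBS libraries of 6 samples were analysed, 2 each of mESCs, C-iPSCs, and 4F-iPSCs. The authors aligned read pairs to mm10 with BSMAP 2.90 and called CpGs with MOABS; the deposited values are read counts per CpG (total and methylated, by strand and summed) and the methylated fraction, which was only checked against the counts. The members and lists were chosen with earlier results of these data known. Named genes were those of the domain with at least 3 member CpGs, plus Ins2. Annotation was GENCODE vM21 and sequence GRCm38.p6. CpGs were compared with Fisher's exact test and a quasi-binomial model with dispersions pooled over CpGs by limma 3.58.1 (R 4.3.3), the first over all compared CpGs and the second over the 1105643 to 1106119 with a read in each library compared, and levels with a two-sided exact permutation test over libraries (scipy 1.17.1, Python 3.11.15), whose smallest p is 0.333. Scripts were tested on simulated data. Alternatives were coverage minimum, read weighting, windows, strands, thresholds, left-out libraries, and a replicate block.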

Additional observations from a re-analysis of the deposited data

Results flagged for a closer look

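At the H19 promoter (5 CpGs), both C-iPSC libraries lay below both mESC libraries and both 4F-iPSC libraries above them. The difference to mESCs was -34.1 points in C-iPSCs and 8.27 points in 4F-iPSCs. The gap between these effects is 4F-iPSCs minus C-iPSCs, 42.3 points, with exact permutation p = 0.33, the smallest it can give, and all 5 CpGs were called higher in 4F-iPSCs by Fisher's exact test on summed reads, which covers counting error only. The 8.27 points were 1.47 without 4F-iPSC replicate 2. At the inner pair of Kcnq1ot1 (2 CpGs) the same held, with -20.3 points in C-iPSCs and 15.2 points in 4F-iPSCs; the last was 8.17 points without 4F-iPSC replicate 2, and with at least 20 reads required the differences were -9.13 and 26.4 points. The gap for the pair was not tested; 1 of its CpGs was called higher in 4F-iPSCs against C-iPSCs by the same test. With 2 libraries per cell type, no library could be examined for standing apart from its group.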

How the results depend on the processing

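No alternative run turned a difference between cell types for the mean level of the domain, the H19 promoter, the Kcnq1ot1 control region, or the domain against all other CpGs. Some of them, such as the replicate block or leaving out a library of the third cell type, leave most of these values as they are by construction, and exact permutation p-values cannot fall below 0.33. Leaving out single libraries moved C-iPSCs minus mESCs from -42.1 to -26.1 points at the H19 promoter and from -31.8 to -25.3 points at the Kcnq1ot1 control region, 4F-iPSCs minus mESCs from 1.47 to 15.1 and from 1.13 to 11.7 points at the same places, and C-iPSCs minus mESCs from 2.26 to 6.20 points over the domain.

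At the H19 control region, 4F-iPSCs minus mESCs turned to 6.84 points with at least 20 reads and ran from -17.3 to 13.6 points with single libraries left out. In the H19 minus Kcnq1ot1 contrast, 4F-iPSCs minus C-iPSCs turned to -2.17 points when read-weighted and ran from -9.93 to 10.4 points with single libraries left out, 4F-iPSCs minus mESCs ran from -18.5 to 1.90 points, and C-iPSCs minus mESCs ran from -14.2 to -3.20 points. No member of the H19 control region had enough forward strand reads, so that alternative gave no value. The cause of these turns was not tested.

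Strong calls higher in C-iPSCs than in mESCs fell from 18 to 8 by the quasi-binomial model, and higher in 4F-iPSCs against C-iPSCs from 20 to 13. With a difference above 0.5, the counts were 0 higher and 1 lower in C-iPSCs than in mESCs, 9 higher in 4F-iPSCs than in mESCs, and 3 higher in 4F-iPSCs against C-iPSCs. With a difference above 0.2 they were 71, 25, 174, and 66, and 2 CpGs were lower in 4F-iPSCs than in mESCs. Calls among all compared CpGs were not counted at either threshold, so these counts do not set the domain against the series. Leaving out single libraries gave 10 to 34 higher in C-iPSCs than in mESCs and 0 to 2 lower in 4F-iPSCs than in C-iPSCs. With at least 5 strong CpGs per DMR, the DMRs higher and lower in C-iPSCs than in mESCs fell to 0 each and those higher in 4F-iPSCs than in mESCs to 2. With single libraries left out, 0 to 5 DMRs were higher and 1 to 2 lower in C-iPSCs than in mESCs.

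Libraries share only a replicate number. Over 663 members with at least 10 reads in all libraries, deviations of same-numbered libraries from their group means correlated at 0.0181 (C-iPSCs and mESCs), -0.287 (4F-iPSCs and mESCs), and 0.0960 (4F-iPSCs and C-iPSCs), and over 957681 CpGs of the series at 0.0410, -0.226, and 0.118, which does not pair them. With a replicate block, the Cochran-Mantel-Haenszel test called 18 CpGs higher and 8 lower in C-iPSCs than in mESCs, 82 higher in 4F-iPSCs than in mESCs, and 20 higher in 4F-iPSCs against C-iPSCs, and mean differences were unchanged by construction, such as -28.7 points at the Kcnq1ot1 control region in C-iPSCs against mESCs. With the numbers crossed between 4F-iPSCs and mESCs, a pairing chosen after seeing the data, the block called 81 CpGs higher and 0 lower.

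Differences in 30 promoters and bodies of the named genes, the inner pair included, were recomputed under alternatives chosen after seeing the data; they moved by more than the SDs of both cell types added together in 17 cases and by less in 607, and 34 changed sign, none above 5.57 points as reported. Of the 60 CpGs of the H19 control region, 4 had a read and 1 had enough, with between 18 and 92 reads per library.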
